A study of Mus musculus with 15 samples.

Results

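The genes described here were 8 genes of cholesterol synthesis and uptake in mouse oocytes: Hmgcs1, Mvk, Pmvk, Fdps, Sqle, Cyp51 and Ebp of the synthesis pathway, and the lipoprotein receptor Lrp1. They were chosen by name, and all 8 were found among the 55401 genes in the count files. All 8 also passed the filter on low counts, which left 21009 genes to be tested. The oocytes came from Kunming mice. The series gives an age of 12 to 14 days, but the age of the mice that gave the in vivo oocytes is not clear from the sources used here, so a difference in age was not separated from culture in the comparisons with in vivo. In all groups 6 oocytes were pooled into each of 15 SMART-Seq2 libraries, a protocol that amplifies complementary DNA from small amounts of RNA. The in vivo group held oocytes of follicles that grew in the animal. The C_10d and C_6d groups held oocytes of preantral follicles cultured for 10 or 6 days without neurotrophin-4 (NT-4), a growth factor that acts through the receptor TRKB. The NT_10d and NT_6d groups were cultured for the same times with NT-4. Each group had 3 libraries. By the study's methods all were at the germinal vesicle stage, the long arrest before meiosis resumes, and the in vivo oocytes were taken from antral follicles. As libraries were pools, differences between single oocytes could not be measured.

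Cholesterol is built from acetyl-CoA through mevalonate, isoprenoids and squalene. When sterol is low in the endoplasmic reticulum, SCAP carries the SREBP factors (genes Srebf1 and Srebf2) to the Golgi for cleavage, and the released factor enters the nucleus and binds sterol regulatory elements of the genes for synthesis and uptake. In the mouse follicle the oocyte is known to rely on cumulus cells for much of its cholesterol, and synthesis enzymes are abundant in those neighbours. Cells also take up cholesterol in lipoproteins through receptors of the low-density lipoprotein receptor family.

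The promoter sequences are shown because the sterol regulatory element is the known link between SREBP and these genes. RefSeq windows (GRCm38.p6) of 300 bases, from 250 before to 50 after the start, matched 6 of the 8 genes: Hmgcs1, Mvk, Pmvk, Cyp51, Ebp and Lrp1. In them 3 motifs were searched on both strands, namely TCACNCCAC (sterol regulatory element), CCAAT (NF-Y box, bound by a partner of SREBP) and CACGTG (E-box). The sterol motif was found in Hmgcs1 alone, as TCACCCCAC at 137 bases before the start, and 1.24% of all 32851 windows held it. The NF-Y box was found in Hmgcs1, Mvk, Pmvk, Cyp51 and Ebp, against 37.4% of all windows, and the E-box in none of the 6, against 7.15%. Pmvk had a further window, at another start, without the NF-Y box. The highest and the lowest gene by mean level over the 15 libraries are printed here, each as the 250 bases before the start and in the direction of the gene, with sterol and NF-Y motifs in capitals. The Hmgcs1 bases are chr13:119690101-119690350 (+ strand) and the Mvk bases chr5:114444019-114444268 (+ strand).
Hmgcs1: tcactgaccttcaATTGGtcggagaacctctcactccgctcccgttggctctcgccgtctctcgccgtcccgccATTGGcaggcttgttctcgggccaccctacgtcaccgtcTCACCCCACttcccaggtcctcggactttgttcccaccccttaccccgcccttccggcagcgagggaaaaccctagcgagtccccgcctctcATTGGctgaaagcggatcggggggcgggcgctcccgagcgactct
Mvk: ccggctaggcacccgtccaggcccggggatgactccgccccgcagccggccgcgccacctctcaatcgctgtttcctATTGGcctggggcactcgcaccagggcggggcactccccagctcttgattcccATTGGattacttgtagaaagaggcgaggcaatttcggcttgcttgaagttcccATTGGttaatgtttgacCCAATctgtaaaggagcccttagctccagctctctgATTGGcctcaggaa
These matches describe letters in a window and do not show binding. Variants of these letters were not searched, so other sterol elements could have been missed.

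Library properties ran across the groups. Total counts per library were 5954262 to 55593251, with NT_6d 1 and 2 the shallowest at 5954262 and 7125348. Between 12.5% and 37.9% of counts fell on the rRNA gene CT010467.1 in 9 libraries, called rRNA-rich here, and 0.187% to 0.714% in the other 6, called rRNA-poor. The rRNA-rich libraries were in vivo 3 and replicates 1 and 2 of every cultured group, so that in vivo had 1 of them and each cultured group 2. The 10 oocyte markers, among them Gdf9, Zp3 and Ddx4, had counts in every library and summed to 10959 to 20381 normalized CPM (counts scaled to library size, with TMM factors). The 16 granulosa and cumulus markers summed to 49.7 to 353, and the 8 theca and stroma markers to 0 to 36.0. In pools of oocytes, fewer oocytes and less RNA per oocyte cannot be told apart.

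Levels between genes were compared per kilobase of exon. Over the 15 libraries Hmgcs1, the cytosolic synthase that makes HMG-CoA, was by far the highest of the 8, at a mean of 51.7 normalized CPM per kb, above 94.9% of the genes tested. Fdps (farnesyl diphosphate synthase) followed at 12.2 and Lrp1 at 9.62. Pmvk (phosphomevalonate kinase) was at 1.71, Sqle (squalene epoxidase) at 1.56, Cyp51 (lanosterol demethylase) at 1.42 and Ebp (sterol isomerase) at 0.778 per kb. Mvk (mevalonate kinase) was lowest over the 15 libraries, at 0.402. By group means the order was not the same throughout: Cyp51 was lowest in vivo, at 0.776 against 0.961 for Mvk, and Ebp in C_10d, at 0.519 against 0.776 for Mvk. Lrp1 was above Fdps in C_10d, at 14.7 against 12.8 per kb and below it in vivo. The order of Pmvk, Sqle and Cyp51 was not separated by the spread between libraries, and Pmvk and Sqle changed places when the length of the principal transcript was used. No count was seen for Mvk in 5 libraries, Ebp in 5, Pmvk in 3, Sqle in 2 and Cyp51 in 1, all of them rRNA-rich. A count of 0 allows up to 3 counts, or 0.0877 to 0.538 normalized CPM in these libraries, for counting error alone.

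**Figure D1:**
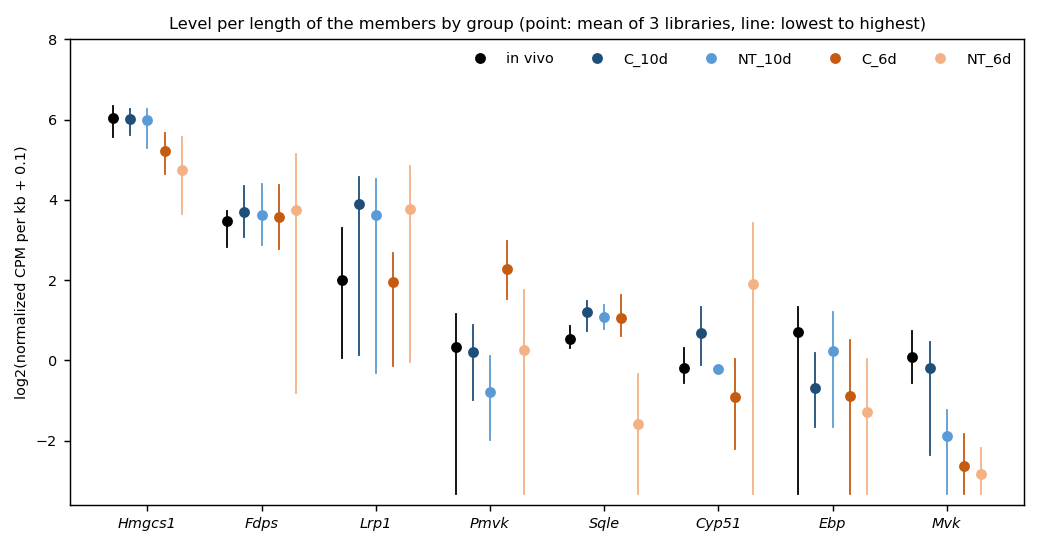
Level per length of the 8 genes on a log2 scale of normalized CPM per kb plus 0.1, by group; points are means of 3 libraries and lines run from the lowest to the highest library. Hmgcs1 lies above the other genes, and lines that reach the bottom include libraries with no count.

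Mevalonate is made and phosphorylated by the products of Hmgcs1, Mvk and Pmvk. Hmgcs1 (chr13:119690379-119708260, GRCm38, + strand) was at 315, 217 and 375 normalized CPM in in vivo libraries 2, 3 and 4. It was at 313, 352 and 223 in C_10d 1, 2 and 3, and at 346, 355 and 180.0 in NT_10d. The day 6 values were 169, 115 and 232 in C_6d and 96.4, 57.6 and 217 in NT_6d. The in vivo and day 10 groups overlapped almost completely, whereas the rRNA-rich libraries of day 6 were all below those of day 10, and the rRNA-poor ones were not. An antisense gene, Gm48342, shares 557 exonic bases with Hmgcs1 and had at most 45 counts, against 333 to 18573 for Hmgcs1.

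Mvk (chr5:114444269-114460591, + strand) was at 1.54, 4.16 and 2.02 normalized CPM in vivo. It was at 0.251, 3.42 and 2.55 in C_10d, and at 0, 0.874 and 0.511 in NT_10d. At day 6 it had counts only in the third library of each group, at 0.482 in C_6d and 0.324 in NT_6d. All NT_10d libraries were thus below all in vivo libraries. Pmvk (chr3:89454541-89469013, + strand) was at 2.29, 0 and 3.63 normalized CPM in vivo, at 0.697, 1.76 and 3.01 in C_10d and at 0.263, 0.538 and 1.67 in NT_10d. It was at 4.79, 13.2 and 6.55 in C_6d and at 0, 0 and 5.63 in NT_6d. All C_6d libraries were above all C_10d libraries.

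Fdps (chr3:89093588-89101959, - strand) makes farnesyl diphosphate, the last step before squalene synthesis branches from other isoprenoids. It was at 53.8, 29.6 and 55.6 normalized CPM in vivo, at 40.9, 34.7 and 85.7 in C_10d and at 30.3, 35.4 and 88.2 in NT_10d. It was at 33.7, 28.6 and 87.3 in C_6d and at 1.97, 17.8 and 148 in NT_6d. Within each group the rRNA-poor libraries were highest. Its values are uncertain, since Gm43738 shares 1124 exonic bases with it on the same strand (0 to 120 counts) and 4 processed pseudogenes are 96.1% to 98.9% identical to it.

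Sqle (chr15:59315077-59331192, + strand) epoxidises squalene and is a rate-limiting enzyme of the sterol branch. It was at 9.40, 6.62 and 6.30 normalized CPM in vivo, at 14.9, 13.3 and 8.72 in C_10d and at 13.8, 10.7 and 9.03 in NT_10d. It was at 16.5, 7.82 and 8.40 in C_6d and at 0, 0 and 3.85 in NT_6d. The NT_6d libraries lay below those of every other group. Both libraries with no count were the shallow ones, in which 3 counts correspond to 0.538 and 0.519 normalized CPM, far under the lowest value of the other groups. That limit covers counting error alone. Both also had the fewest genes detected, 13338 and 10991 against 15483 to 22966 in the other libraries, and no count for Mvk, Pmvk or Ebp. A wider loss of transcripts in these libraries was not tested.

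Cyp51 (chr5:4081145-4104746, - strand) removes a methyl group from lanosterol. It was at 2.56, 5.06 and 2.66 normalized CPM in vivo, at 3.60, 10.7 and 5.63 in C_10d and at 3.25, 3.46 and 3.39 in NT_10d. It was at 4.08, 0.511 and 1.17 in C_6d and at 0, 47.2 and 0.826 in NT_6d. NT_10d lay below C_10d without overlap, and NT_6d 2 stood apart from all other libraries. Akap9, on the opposite strand, shares 166 exonic bases with Cyp51 and had 63 to 2017 counts over its whole length, against 0 to 473 for Cyp51.
Ebp (chrX:8185329-8193512, - strand) shifts a double bond of the sterol ring. It was at 5.16, 0 and 5.55 normalized CPM in vivo, at 0.502, 0.698 and 2.40 in C_10d and at 1.90, 0.504 and 5.06 in NT_10d. At day 6 it had counts only in C_6d 3, at 3.04, and NT_6d 3, at 2.15. In none of the 6 comparisons were the groups apart for Ebp.

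Lrp1 (chr10:127538161-127621148, - strand) encodes a large endocytic receptor for apolipoprotein E and many other ligands. It was at 21.1, 172 and 16.7 normalized CPM in vivo, at 421, 344 and 17.7 in C_10d and at 228, 404 and 12.5 in NT_10d. It was at 72.9, 112 and 14.3 in C_6d and at 507, 199 and 15.6 in NT_6d. Every group held both high and low libraries, and the split followed the kind of library. The 9 rRNA-rich libraries were at 72.9 to 507 and the 6 rRNA-poor libraries at 12.5 to 21.1, without overlap. Fdps and Ebp also separated by kind, in the opposite direction: 1.97 to 40.9 against 53.8 to 148 for Fdps, and 0 to 1.90 against 2.15 to 5.55 for Ebp. The other 5 genes overlapped between kinds. The share of all genes tested that separated by kind was not determined, so the separation is not shown to be particular to these genes. What part the kind of library has in the differences between groups was addressed only by fits that include it.

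**Figure D2:**
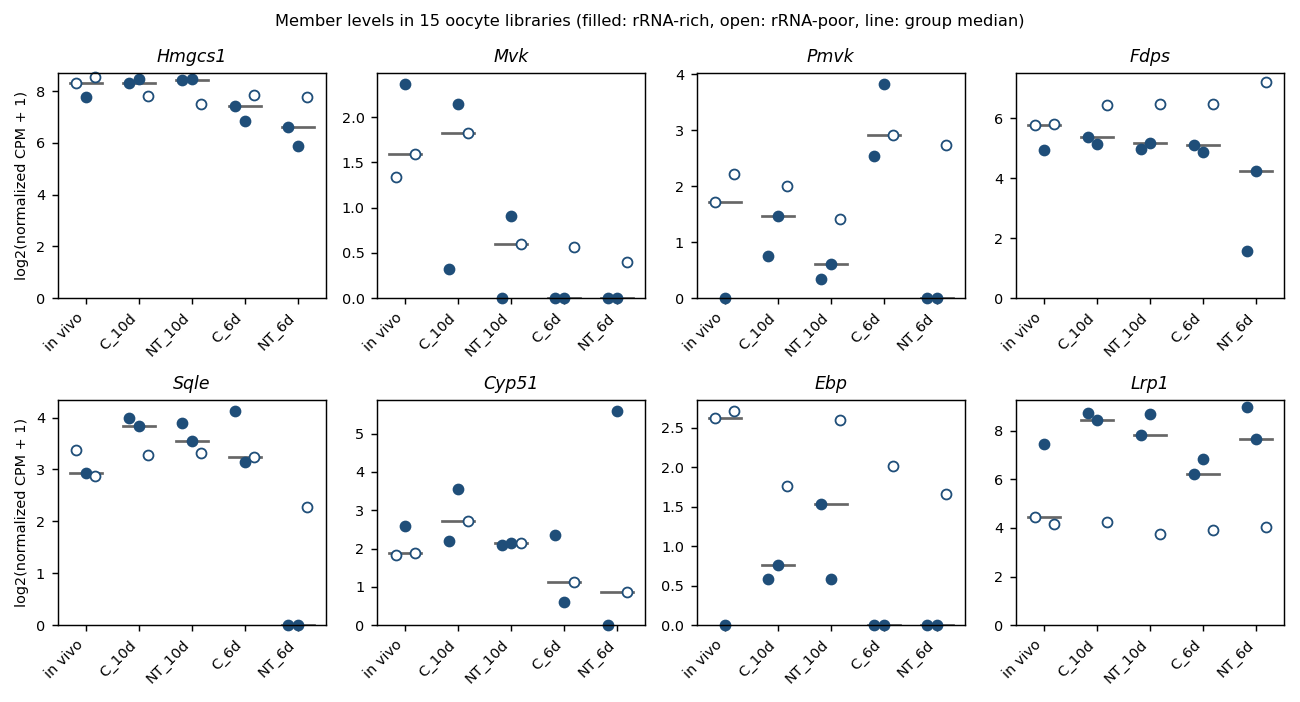
Level of each gene in the 15 libraries as log2 of normalized CPM plus 1; filled points are rRNA-rich and open points rRNA-poor libraries, and lines are group medians. The open points lie below the filled ones for Lrp1, at 12.5 to 21.1 against 72.9 to 507 normalized CPM, and above them for Fdps and Ebp.

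Culture to day 10 was compared with growth in vivo to ask how far the genes differ after culture. A gene was called at a log2 fold change beyond 1 with an unadjusted p under 0.05, the study's threshold, in edgeR's quasi-likelihood test. None of the 8 genes was called in C_10d against in vivo, where 2.76% of all genes tested were, nor in NT_10d against in vivo, where 3.29% were. In both comparisons 0 of 8 had an unadjusted p under 0.05, all adjusted p were 1, and DESeq2 also called 0. In none of the 6 comparisons did any of the 21009 genes have an adjusted p under 0.05 in edgeR. DESeq2 gave 66 and 83 such genes in the 2 comparisons with in vivo, 48 in NT_10d against C_10d, 645 in NT_6d against C_6d, 103 in C_10d against C_6d and 691 in NT_10d against NT_6d, none of them among the 8 genes, of which 1 had no DESeq2 adjusted p. No gene of the 8 had groups apart in C_10d against in vivo, where 11.9% of all genes did. The nearest was Lrp1 in C_10d, with 261 ± 214 normalized CPM against 69.8 ± 88.2 in vivo (SD, n = 3 each) and a log2 fold change of 1.90 ± 1.36 (SE, 95% interval -0.97 to 4.78, adjusted p = 1). Hmgcs1 differed by -0.03 ± 0.61 in C_10d and -0.04 ± 0.61 in NT_10d on the log2 scale, with 95% intervals of -1.33 to 1.26 and -1.34 to 1.25. The median log2 fold change of the 8 genes was 0.09 in C_10d and -0.03 in NT_10d, against -0.20 and -0.19 over all genes tested.

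The Lrp1 value changed with the fit and with the libraries kept. With library kind as a covariate its log2 fold change was 0.51 ± 0.54 in C_10d and 0.18 ± 0.54 in NT_10d against in vivo. Without in vivo 3, the single rRNA-rich library of that group, it was 3.73 and 3.42 and was called in both comparisons. Ebp went from -1.57 to 2.74 in C_10d and from -0.52 to 3.75 in NT_10d with the covariate, and none of the 8 genes was called, where 3.83% and 4.31% of all genes were. Among rRNA-rich libraries alone, with 1 library in vivo, none of the 8 was called either, where 1.68% and 1.53% of all genes were. Mvk was apart between NT_10d and in vivo, at 0.462 ± 0.439 against 2.57 ± 1.39 normalized CPM. The two-sided exact permutation p was 0.1, the smallest that 3 against 3 libraries can give, and 11.6% of all genes tested were apart in that comparison.

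NT-4 was compared with its control at each time. At day 10, 0 of 8 genes were called, with 1.24% of all genes called, 0 had an unadjusted p under 0.05 and DESeq2 called 0. Hmgcs1 was at 293 ± 98.6 normalized CPM with NT-4 and 296 ± 65.8 without, a log2 fold change of -0.01 ± 0.61 (95% interval -1.31 to 1.28, adjusted p = 1 in edgeR). The intervals of the remaining genes were wide: for Cyp51, whose groups were apart (exact permutation p = 0.1, where 3.59% of all genes were apart), it ran from -4.34 to 2.39. With the covariate for kind none of the 8 was called, where 2.03% of all genes were, and among rRNA-rich libraries none, where 0.109% were.

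At day 6, 0 of 8 genes were called with NT-4, where 11.6% of all genes were, and 0 had an unadjusted p under 0.05. DESeq2 called 1, Cyp51, where it called 2633 of all genes. The Cyp51 log2 fold change of 3.55 rests on NT_6d 2: without that library edgeR gave -2.0. Sqle was at 1.28 ± 2.22 normalized CPM with NT-4 and 10.9 ± 4.84 without, a log2 fold change of -3.01 ± 1.47 (unadjusted p = 0.0564 and adjusted p = 0.439 in edgeR's quasi-likelihood test). Its groups did not overlap (exact permutation p = 0.1), as for 8.45% of all genes tested. With library kind as a covariate Sqle, Pmvk and Lrp1 passed the call rule, where 15.8% of all genes did. The log2 fold changes were then -3.51 ± 1.55 for Sqle, -4.82 ± 2.08 for Pmvk and 1.26 ± 0.53 for Lrp1, with adjusted p of 0.297, 0.294 and 0.288. Among rRNA-rich libraries alone the same 3 were called, where 18.1% of all genes were, with adjusted p of 0.104, 0.168 and 0.168. Both NT_6d libraries of that kind are the shallow ones, in which Sqle and Pmvk had no count. Without NT_6d 1 and 2, which leaves NT_6d 3 alone in its group, the log2 fold change of Lrp1 was -1.98. The NT-4 effect at day 10 minus that at day 6 was called for 0 of 8 genes, where 6.37% of all genes were called, at 2.87 ± 1.96 for Sqle (adjusted p = 0.920) and -4.03 ± 2.32 for Cyp51 (adjusted p = 0.867).

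The days of culture were compared within each treatment. In C_10d against C_6d 0 of 8 genes were called, where 2.90% of all genes were, 0 had an unadjusted p under 0.05 and DESeq2 called 0. Pmvk was at 1.82 ± 1.16 normalized CPM at day 10 and 8.18 ± 4.43 at day 6, a log2 fold change of -2.16 ± 1.92 (adjusted p = 1), with groups apart (exact permutation p = 0.1, 7.42% of all genes apart). Same-numbered libraries of these groups were taken as paired, although in culture the kind of library follows the number. With the number as a block Mvk was called, at 5.10 ± 2.38 (unadjusted p = 0.0477 in edgeR's quasi-likelihood test), on a level of 2.08 ± 1.64 against 0.161 ± 0.278. In that blocked fit 360 of all genes tested were called. It also held the in vivo libraries, whose numbers do not pair with culture, so it was not a clean paired test. With the kind as a covariate Lrp1 was called, at 1.39 ± 0.53 (unadjusted p = 0.0191, adjusted 0.965), where 4.86% of all genes were. Among rRNA-rich libraries alone Lrp1 and Hmgcs1 were called, at 2.03 ± 0.57 and 1.20 ± 0.43 (adjusted p = 1 for both), where 1.77% of all genes were.

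In NT_10d against NT_6d 0 of 8 genes were called, where 12.7% of all genes were, 0 had an unadjusted p under 0.05 and DESeq2 called 0. The smallest p was that of Sqle, with 11.2 ± 2.44 against 1.28 ± 2.22 normalized CPM (log2 fold change 3.05 ± 1.47, unadjusted p = 0.0541 and adjusted p = 0.40 in edgeR). Next was Hmgcs1, with 293 ± 98.6 against 124 ± 83.2 (1.25 ± 0.62, unadjusted p = 0.0619 and adjusted p = 0.412 in edgeR). Granulosa and cumulus markers moved in the same comparison: 4 of the 14 tested (Hsd17b1, Fshr, Inha and Inhba) were called higher and 0 lower, with a median log2 fold change of 2.47 against 0.40 over all genes tested. Their list summed to 138 to 353 normalized CPM in NT_10d and 49.7 to 219 in NT_6d, with Amh at 0 in both groups, Ptx3 in NT_10d and Amhr2 in NT_6d. These sums overlapped. In the shallow NT_6d 1 and 2 only 4 and 6 of the 16 markers had counts, against 12 in NT_6d 3. Both nevertheless summed higher, to 134 and 219 against 49.7 in NT_6d 3. How far zeros in the shallow libraries made the marker calls was not tested. In NT_6d against C_6d 2 of the 14 (Hsd17b1 and Fshr) were called lower, and in each other comparison at most 1 was called. The part of these cells in the levels of the 8 genes was not tested. Sqle groups were apart (exact permutation p = 0.1), as for 11% of all genes tested. With the kind as a covariate Hmgcs1, Sqle and Ebp passed the call rule, where 16.9% of all genes did, at 1.38 ± 0.49, 3.54 ± 1.55 and 5.10 ± 2.13 with adjusted p of 0.246, 0.272 and 0.260. Among rRNA-rich libraries alone Hmgcs1 and Sqle did, where 19.5% of all genes did, with adjusted p of 0.0689 and 0.0881. The Hmgcs1 difference was then 2.25 ± 0.45, from 346 and 355 normalized CPM in NT_10d 1 and 2 to 96.4 and 57.6 in NT_6d 1 and 2. Without NT_6d 1 and 2, which leaves NT_6d 3 alone in its group, the log2 fold changes of Cyp51 and Lrp1 were 1.93 and 3.66.
The call rule depended on scaling in the comparisons with NT_6d: with TMM 58.3% of calls over all genes in NT_6d against C_6d were higher, and with DESeq2's size factors 73.3%. In NT_10d against NT_6d the shares were 43.1% and 26.3%. The median of all genes moved by 0.27 and -0.36 on the log2 scale between these scalings. No log2 fold change of the 8 genes changed sign between these scalings.

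**Figure D3:**
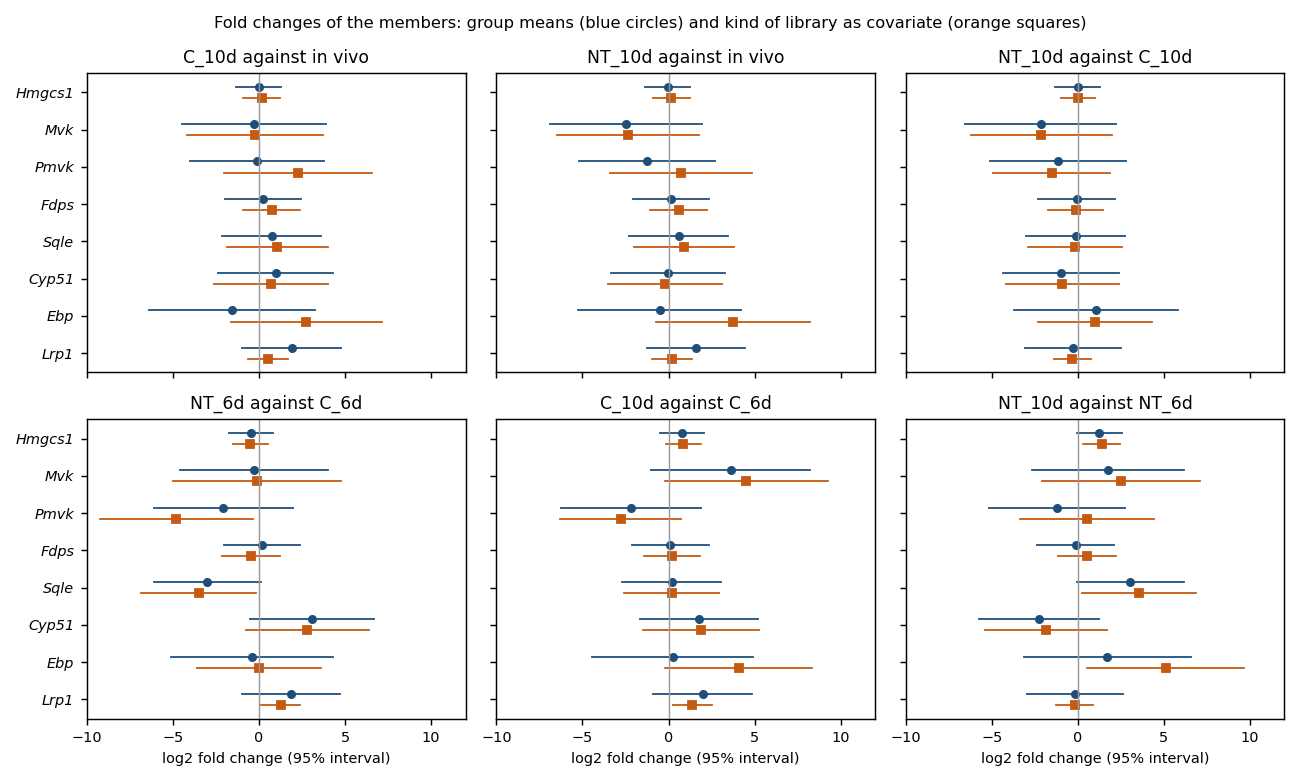
Log2 fold change of each gene in the 6 comparisons with its 95% interval, from group means (blue circles) and with the kind of library as covariate (orange squares). All blue intervals include 0. The orange intervals of Lrp1 narrow, and those of Pmvk and Ebp move both against in vivo and between cultured groups.

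The other 50 genes of the pathway, listed by role, were all tested. Of the enzymes of synthesis, Fdft1 (squalene synthase) was highest, at 141 normalized CPM per kb, and Lbr, a sterol reductase of the nuclear envelope, was at 56.1 per kb, near Hmgcs1. In C_10d against in vivo 1 of 50 was called, where 2.76% of all genes were: Srebf2 rose from 38.4 ± 5.86 to 124 ± 62.1 normalized CPM (log2 fold change 1.69 ± 0.76, adjusted p = 1). That call was lost with DESeq2's size factors, with no filter on low counts, with the replicate block and on leaving out any 1 library but C_10d 3. In NT_10d against in vivo 3 of 50 were called (3.29% of all genes): the cholesterol acyltransferase Soat2 and the exporter Abca1 had no count in NT_10d (lower by at least 13.1-fold and 58.4-fold, with the floor set at 3 counts summed over a group), and Abcg4 had none in vivo (at least 15.7-fold higher in NT_10d). In NT_10d against C_10d 2 were called (1.24% of all genes), Abca1 (at least 16.6-fold lower) and Abcg4 (at least 18.8-fold higher). Same-numbered libraries were taken as paired here too. With the number as a block, in a fit that also held the in vivo libraries, neither was called. These genes had at most 103 counts in any library, and in the group with counts at least 1 library was at 0, except for Abca1 in vivo. The lower limits on fold given here and below cover counting error alone and not the spread between libraries. Soat2 in vivo was at 0.166, 2.05 and 0 normalized CPM, and Abcg4 in NT_10d at 0, 1.34 and 0.0929.

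In NT_6d against C_6d 8 of 50 were called (11.6% of all genes), 5 higher and 3 lower. Among the higher were Soat2 (4.67 ± 7.31 against 0.0195 ± 0.0337 normalized CPM) and the lipoprotein receptor Vldlr (log2 fold change 4.65), and each was highest in 1 of the shallow libraries. Among the lower were the fatty acid and lipoprotein receptor Cd36 (-3.25) and Npc1, which exports cholesterol from lysosomes (-1.38). The adjusted p of these 4 were 0.381 to 0.414. In C_10d against C_6d 4 were called (2.90% of all genes): Srebf2 at 1.66 ± 0.76, Abca1 and Apoa1, with no count in C_6d (at least 18-fold and 37.1-fold higher), and Abcg4, with none in C_10d (at least 25.7-fold lower). With the replicate block Srebf2 and Apoa1 were called there, and Abca1 and Abcg4 were not. Apoa1 was at 0, 0.0901 and 2.24 normalized CPM in C_10d 1, 2 and 3, so its limit rests on 1 library. In NT_10d against NT_6d 13 were called (12.7% of all genes), 8 higher and 5 lower. Among the higher were Apoa1, with no count in NT_6d (at least 31.7-fold), and Cd36 (log2 fold change 2.84). All 139 counts of Apoa1 in NT_10d were in NT_10d 3, and without that library both groups were at 0. The lowest were Soat2, with no count in NT_10d (at least 63.4-fold lower), Lipa (-7.03) and Vldlr (-5.80). Without NT_6d 1 and 2, 0 of the 8 calls in NT_6d against C_6d and 1 of the 13 in NT_10d against NT_6d, that of Soat2, remained. Vldlr and Lipa then changed sign in NT_10d against NT_6d, and Vldlr in NT_6d against C_6d.

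The 8 genes varied together to different degrees. Over the 15 libraries, which share depth and kind, Pearson's r of log2 CPM was 0.78 between Hmgcs1 and Sqle and 0.77 after the mean of each kind was removed. It was -0.72 between Fdps and Lrp1 and -0.38 after that removal. For Ebp and Lrp1 it went from -0.65 to 0.46. The genes most like each by this measure, of 21009, were Gm5141 and Cryzl1 for Hmgcs1 (r = 0.95 and 0.93), Snx24 and Heyl for Mvk (0.95 and 0.94), and Bag5 and Olfr315 for Pmvk (0.97 and 0.95). They were Sec13 and Gm15286 for Fdps (0.98 for both), Fam189b and 4931406C07Rik for Sqle (0.99 for both), and Greb1 and Tepsin for Cyp51 (0.96 and 0.94). They were Tatdn1 and Cdkn3 for Ebp (0.98 for both) and Ccdc85c and Ell for Lrp1 (0.96 for both).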

How the data were processed

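Oocyte RNA was sequenced by the authors after SMART-Seq2 amplification of pools of 6 oocytes. Per the submitters' processing notes FastQC, HISAT2 and edgeR (versions not given) and genome build mm10 were used, and the study's methods name StringTie for quantification. The authors deposited raw counts per Ensembl gene for each library, and these were used as deposited. The strand setting of the counting is not given in the sources used here, so genes that overlap on opposite strands cannot be told apart.

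Groups and replicate numbers came from the sample titles. Genes were filtered with filterByExpr (minimum count 10), normalized by TMM and tested in 1 fit over 15 libraries with the quasi-likelihood test of edgeR 4.0.16 (R 4.3.3, limma 3.58.1), and DESeq2 1.42.0 was an alternative. Levels are printed as normalized CPM, and per kb of exon between genes, in place of the FPKM planned at first. P-values were adjusted by Benjamini-Hochberg over all genes tested. SE is the absolute log2 fold change over the root of F. Symbols, exon lengths and overlaps came from GENCODE vM21 (GRCm38), with 99.5% of identifiers matched. The 8 genes, the lists, the limit of 5% rRNA and the tests were chosen with earlier results of these data known. Named pathway genes are those called, or the 3 highest and 3 lowest log2 fold changes where more than 5 were called, and some that this rule names are not reported here. For likeness a prior count of 2 was added before taking log2 CPM.

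Libraries of a group differed far beyond counting error (chi-square per gene 48.4 to 1605), so errors are the spread between libraries. The study's methods draw each group's libraries from replicated experiments. Deviations from group means correlated between same-numbered libraries at 0.37 to 0.73 for C_10d and NT_10d and at 0.15 to 0.54 for C_10d and C_6d, which were taken as paired. For C_6d and NT_6d the values were 0.083 to 0.33, and for NT_10d and NT_6d 0.066 to 0.26, which were not. These ranges overlap that of C_10d and C_6d, and by the study's methods the culture groups were run in parallel. The choice is therefore uncertain, and counts of calls with the block are given for these comparisons too. In vivo libraries correlated with same-numbered day 10 libraries at -0.52 to -0.28, so they were not paired, and the deposited files number them otherwise than the titles. The fit with the block nevertheless held them under their title numbers. It is therefore not a clean paired test of the cultured groups either. The kind of library follows the replicate number in culture, so these correlations cannot tell a shared experiment from a shared kind. The test was tried on simulated data, where at the spread of these libraries it missed most of the smaller changes. Even these were larger than the fold threshold of the call rule, so the lack of a call does not show equal levels. The simulated means did not differ by kind of library.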

Additional observations from a re-analysis of the deposited data

How the results depend on the processing

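With 0 of 8 genes called in every comparison, 71 of 88 alternative counts were also 0. With library kind as a covariate 3, 1 and 3 genes were called in NT_6d against C_6d, C_10d against C_6d and NT_10d against NT_6d, and with only rRNA-rich libraries 3, 2 and 2. With the replicate block 1 gene was called in C_10d against C_6d and 0 in the other comparisons, and no other call among the 8 genes changed. With it 0 of 1 and 2 of 3 calls of other pathway genes remained in C_10d and NT_10d against in vivo, 0 of 2 in NT_10d against C_10d, 2 of 8 in NT_6d against C_6d, 2 of 4 in C_10d against C_6d and 2 of 13 in NT_10d against NT_6d. Leaving out 1 library, 0 to 1, 1 to 2, 0 to 1, 4 to 8, 0 to 2 and 4 to 11 of them remained in the same order. With only the 2 groups in the fit 1 was called in C_10d against C_6d (Pmvk), where 416 of all genes were. With DESeq2 1 was called in NT_6d against C_6d (Cyp51), where 2633 of all genes were. Leaving out 1 library gave 0 to 1 genes in C_10d and in NT_10d against in vivo (Lrp1, without in vivo 3), 0 to 2 in C_10d against C_6d (Mvk and Ebp, without C_6d 3), and 0 in NT_10d against C_10d. It gave 0 to 4 in NT_6d against C_6d and in NT_10d against NT_6d, with 4 in each without NT_6d 3, which leaves the shallow libraries. Ebp was called in NT_6d against C_6d without C_6d 3, Cyp51 without NT_6d 1, and Hmgcs1 in NT_10d against NT_6d without NT_10d 3. Over all genes, leaving out 1 library gave 1789 to 6817 calls in NT_6d against C_6d and 1671 to 7211 in NT_10d against NT_6d. It gave 199 to 1065 in C_10d against in vivo and 235 to 1123 in NT_10d against in vivo. In NT_10d against C_10d it gave 126 to 254, and in C_10d against C_6d 311 to 915. The difference of NT-4 effects between days stayed at 0 genes with DESeq2's size factors and with the block. The cause of these changes was not tested. Of 684 alternative log2 fold changes of the 8 genes, 84 changed sign, and of 262 of the named pathway genes, 6 did so and 109 were no longer called. With library kind as a covariate, the log2 fold changes that changed sign were Hmgcs1 0.15, Pmvk 2.26, Ebp 2.74 in C_10d against in vivo, and Hmgcs1 0.15, Pmvk 0.74, Ebp 3.75 in NT_10d against in vivo, and Hmgcs1 0.0034 in NT_10d against C_10d, and Fdps -0.48 in NT_6d against C_6d, and Pmvk 0.53, Fdps 0.54 in NT_10d against NT_6d. With only rRNA-rich libraries, the log2 fold changes that changed sign were Hmgcs1 0.64, Pmvk 7.91, Ebp 6.88 in C_10d against in vivo, and Hmgcs1 0.72, Pmvk 6.31, Ebp 7.89 in NT_10d against in vivo, and Hmgcs1 0.083 in NT_10d against C_10d, and Fdps -1.72 in NT_6d against C_6d, and Pmvk 6.31, Fdps 1.77 in NT_10d against NT_6d. With the replicate block, in which the numbers do not pair in vivo with culture, the log2 fold changes that changed sign were Hmgcs1 0.15, Mvk 1.05, Pmvk 0.68, Lrp1 -1.55 in C_10d against in vivo, and Hmgcs1 0.14, Lrp1 -1.80 in NT_10d against in vivo, and Fdps -0.53 in NT_6d against C_6d, and Fdps 0.56 in NT_10d against NT_6d. With only the 2 groups in the fit, the log2 fold changes that changed sign were Hmgcs1 0.023 in C_10d against in vivo. Without NT_6d 1 and 2, an alternative chosen after seeing the data in which the lone NT_6d library is assumed to vary like the other groups, the log2 fold changes that changed sign were Hmgcs1 0.41, Mvk 0.96, Cyp51 -1.12, Ebp 1.09, Lrp1 -1.98, Vldlr -2.20 in NT_6d against C_6d, and Cyp51 1.93, Lrp1 3.66, Vldlr 1.03, Lipa 4.85 in NT_10d against NT_6d. Values from groups with no count are fitted and give no bound, and Mvk and Ebp had no count in either group of rRNA-rich day 6 libraries, so no value is given there. The range over leaving out each library follows for those that changed sign. In C_10d against in vivo the log2 fold changes then ran over Hmgcs1 -0.27 to 0.16, Mvk -0.86 to 0.20, Pmvk -0.74 to 0.66 and Fdps -0.29 to 0.46. In NT_10d against in vivo the log2 fold changes then ran over Hmgcs1 -0.30 to 0.21, Fdps -0.50 to 0.40 and Cyp51 -0.19 to 0.31. In NT_10d against C_10d the log2 fold changes then ran over Hmgcs1 -0.18 to 0.24, Fdps -0.72 to 0.44, Sqle -0.34 to 0.00067, Ebp -0.0015 to 2.05 and Lrp1 -1.13 to 0.28. In NT_6d against C_6d the log2 fold changes then ran over Mvk -5.57 to 5.22, Fdps -2.34 to 0.85, Cyp51 -2.0 to 4.23, Ebp -8.16 to 7.70 and Vldlr -3.11 to 5.23. In C_10d against C_6d the log2 fold changes then ran over Fdps -0.40 to 0.79, Sqle -0.013 to 0.60 and Ebp -0.77 to 8.37. In NT_10d against NT_6d the log2 fold changes then ran over Pmvk -2.26 to 7.85, Fdps -0.77 to 2.38, Cyp51 -2.83 to 2.80, Lrp1 -1.03 to 1.0, Vldlr -6.82 to 1.94 and Lipa -11.75 to 4.82. Over all genes, the counts called were 261 in NT_10d against C_10d, 28 with rRNA-rich libraries only, 66 with the 2 groups only, 127 with the block, 150 with DESeq2 and 427 with the covariate. In NT_6d against C_6d they were 2430, and 4630, 451, 1138, 2633 and 3312 under the same settings, with 738 without NT_6d 1 and 2 and 4022 with no filter. In C_10d against in vivo they were 579, 1637 with no filter and 970 with the 2 groups only. In NT_10d against in vivo they were 691, 1580 with no filter and 392 with rRNA-rich libraries only. In C_10d against C_6d they were 609, 1022 with the covariate and 360 with the block. In NT_10d against NT_6d they were 2661, 4250 with no filter, 4986 with rRNA-rich libraries only, 733 with the 2 groups only, 1309 with the block and 657 without NT_6d 1 and 2. With 3 libraries a group, counting error was small beside the spread between libraries except for genes at 0 in the shallow libraries.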
